A study of Oryza sativa with 4 samples.

Results

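The UDP-glycosyltransferases (UGTs) of rice were compared between non-transgenic (NT) plants and OsC3H10OX plants. Members were taken from the gene descriptions that the deposited table carries: every transcript described as a UDP-glucosyl, UDP-glucuronosyl or UDP-glycosyltransferase or as a glucosyltransferase, other than those of xyloglucan, cellulose, sucrose, trehalose or starch metabolism. The rule matched 169 transcripts of 150 genes, out of 37972 transcripts of 31414 genes. Each gene was represented by its matched transcript with the highest mean level. For Os04g0272700 a transcript that the rule did not match had a higher level. No measured difference between the groups entered the rule. Without the bare word glucosyltransferase, a narrower form of the rule would keep 118 of the 150 genes.

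NT was cv. Nakdong, and OsC3H10OX was line #20 in the T4 generation, which carries the CCCH zinc finger gene OsC3H10 (called OsTZF8 in the labels) under the PGD1 promoter for expression in the whole plant. Both groups were whole plants of 3 weeks, grown in soil with no treatment, and each gave 2 libraries. OsC3H10OX was therefore a single transgenic line, and OsC3H10 itself was not analysed here. A number that looks like a year stands in the NT sample descriptions and is missing from the OsC3H10OX ones, so a difference in growing or sequencing time cannot be told apart from the genotype. Levels are in FPKM, fragments scaled to transcript length and to the total of mapped fragments.

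UGTs move a sugar from a UDP-sugar, most often UDP-glucose, onto a small acceptor such as a hormone, a flavonoid, a sterol or a foreign compound. The sugar makes the acceptor more soluble, and often inactive or ready for storage in the vacuole, and glucosidases can take it off again. Plant genomes hold many UGT genes, often side by side as tandem copies, and glucosides of cytokinin, auxin and abscisic acid are storage or inactive forms of these hormones. Most enzymes of the family are known by sequence only, so that their acceptors are not established.

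As a family, the UGTs were expressed at low levels. The mean level over the 4 libraries was at least 10 FPKM for 21 members, from 1 to under 10 FPKM for 74, and under 1 FPKM for 55, and the median of these means was 1.89 FPKM against 6.51 FPKM over all listed genes. Summed over the 150 members, the level was 690 and 759 FPKM in NT replicates 1 and 2 and 736 and 811 FPKM in OsC3H10OX replicates 1 and 2, so the groups overlapped. The 6 highest members held between 30.8% and 33.0% of that sum in each library. A transcript was tested when it reached 1 FPKM in at least 2 libraries, which 95 members did (63.3%, against 82.4% of all listed genes and 80.2% of all listed transcripts). Of these 95, Os07g0490100 passed with both NT libraries under 1 FPKM, and Os04g0324100 with both OsC3H10OX libraries under 1 FPKM. Os10g0122000 had 0.668 and 1.32 FPKM in NT, so it too needed the OsC3H10OX libraries to pass. Os01g0805500, at 0.830 and 1.02 FPKM in NT, did as well, and such members stay in the counts below.

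Of the 95 tested members, 3 were higher in OsC3H10OX and 0 were lower, by limma on the log2 values of the deposited table at a Benjamini-Hochberg adjusted p under 0.05. The 3 were Os10g0122000, Os04g0131850 and Os07g0201500. They are 3.16% of the tested members, and over all 30449 tested transcripts 0.647% were called higher and 0.841% were called lower. With 1 transcript for each tested gene these backgrounds are 0.695% and 0.869%. Before adjustment, at p under 0.05, 18 members were higher (18.9%, background 8.35%) and another 9 were lower (9.47%, background 9.36%). Both OsC3H10OX libraries lay above both NT libraries for 31 members (32.6%, background 26.8%) and below them for 24 (25.3%, background 26.1%), and for 40 the groups overlapped. On the log2 scale 8 of the 150 members were at least 2-fold higher (5.33%, against 1.8% of all listed transcripts) and 0 were at least 2-fold lower (background 1.79%). These counts depend on the pseudocount and the library: with log2(FPKM + 0.1) they were 15 and 5 (backgrounds 3.92% and 3.77%), and without OsC3H10OX replicate 2 they were 11 and 7 (backgrounds 2.68% and 2.32%). The centre of the family lay near 0. The median log2 fold change (OsC3H10OX minus NT) was 0.02, against 0.00171 over all tested transcripts, and 71 of the 95 members lay within 0.5 of no change. Of the 95, 51 had a positive log2 fold change (53.7%, background 50.3%).

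**Figure D1:**
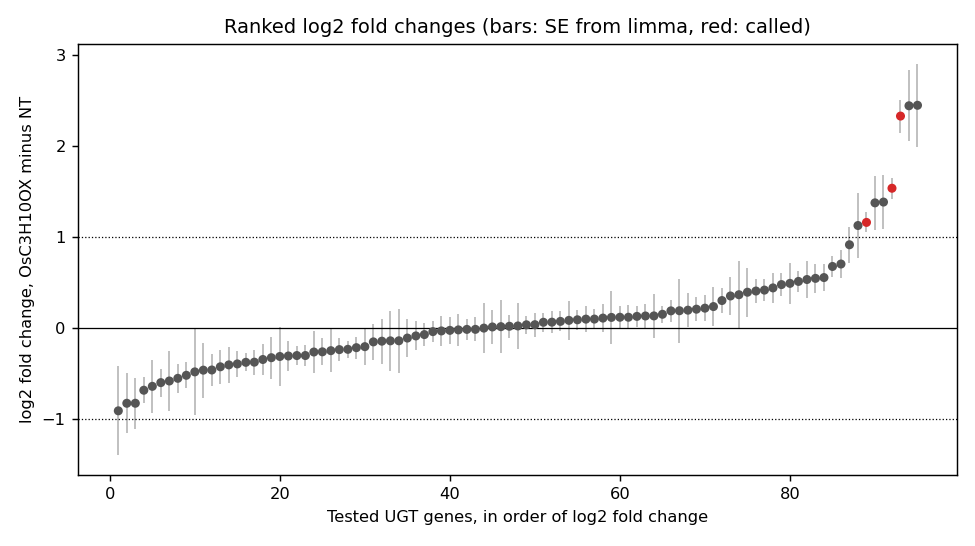
Log2 fold change (OsC3H10OX minus NT) of the 95 tested UGT genes in rank order, with bars of 1 SE from limma, dotted lines at 2-fold and the 3 called genes in red. On this scale 8 genes lie above the upper dotted line and 0 below the lower one, and over all 150 members with log2(FPKM + 0.1) the counts were 15 and 5.

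The p-values measure the spread between 2 libraries a group, which the study describes as biological replicates. An exact permutation test of 2 against 2 libraries cannot go below p = 0.333, so each call rests on limma's shared estimate of the spread. All 3 calls were lost when NT replicate 1, NT replicate 2 or OsC3H10OX replicate 1 was left out, which leaves 1 library in a group. Fewer of all transcripts passed in those fits as well, so whether the loss is particular to these genes was not tested. With each library left out, the log2 fold change ran from 2.12 to 2.54 for Os10g0122000. It ran from 1.47 to 1.60 for Os04g0131850 and from 1.13 to 1.20 for Os07g0201500. Without NT replicate 2 limma called 0 of all transcripts. Without OsC3H10OX replicate 2, 5 members were called higher and 4 were called lower (backgrounds 1.9% and 1.47%), and Os07g0201500 was not among them (adjusted p = 0.0501 by limma). With no filter on low values all 3 calls were lost as well (adjusted p 0.0627 to 0.0799 by limma), and with a filter of 5 FPKM Os07g0201500 was lost (adjusted p = 0.0518 by limma). How many of all transcripts were called at either setting is not given here.

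Os10g0122000, a UGT family gene with no substrate named in its description, lies at chr10:1405692-1407206 (IRGSP-1.0). Its level was 0.668 and 1.32 FPKM in the NT libraries and 9.31 and 8.44 FPKM in the OsC3H10OX libraries, which stand for about 33, 100, 512 and 429 fragments. The groups were far apart, and the OsC3H10OX libraries lay close together. The log2 fold change was 2.33 (SE 0.18, adjusted p = 0.0239 by limma). Among its 10 nearest tested genes, 5 on each side, 1 was called, Os10g0118200 with a log2 fold change of -1.83, in the opposite direction.

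Os04g0131850 is described as similar to a UDP-glucose:sterol glucosyltransferase, an enzyme that puts glucose on membrane sterols, and lies at chr4:1974598-1981816. Its level was 1.64 and 1.52 FPKM in NT and 6.54 and 6.38 FPKM in OsC3H10OX, about 49, 70, 220 and 198 fragments. The log2 fold change was 1.54 (SE 0.12, adjusted p = 0.0225 by limma), and it was the only one of the 5 sterol glucosyltransferase genes to rise by the test. Next to it lies Os04g0131900, with the same description and a higher level, at 17.1 and 16.5 FPKM in NT and 14.0 and 14.0 FPKM in OsC3H10OX. That neighbour had a log2 fold change of -0.24 (SE 0.09, adjusted p = 0.304 by limma), with both OsC3H10OX libraries below both NT libraries. Whether fragments were divided between these adjacent genes when FPKM was estimated was not tested.

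Os07g0201500, a UGT domain gene at chr7:5481538-5482455, had 1.98 and 1.98 FPKM in NT and 5.65 and 5.65 FPKM in OsC3H10OX, about 54, 83, 172 and 159 fragments. The log2 fold change was 1.16 (SE 0.11, adjusted p = 0.0326 by limma). Os07g0201800, the next tested UGT gene of the same tandem stretch, had 0.602 and 1.06 FPKM in NT and 0.685 and 2.23 FPKM in OsC3H10OX, so its groups overlapped. Among the 10 nearest tested genes of Os04g0131850 and of Os07g0201500, 0 were called.

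A further 5 members had log2 fold changes above 1 without passing the test, and in 3 of them OsC3H10OX replicate 1 was well above replicate 2. Os02g0755900 had 1.99 and 2.1 FPKM in NT and 24.9 and 9.36 FPKM in OsC3H10OX, with a log2 fold change of 2.45 (SE 0.46, adjusted p = 0.117 by limma). It ends a stretch of 3 UGT genes over 20.5 kb at chr2:31787348-31807800, in which Os02g0755500 and Os02g0755600 had log2 fold changes of 0.35 and 0.55. In each of the 3 genes both OsC3H10OX libraries were above both NT libraries. Os04g0320700 had 2.99 and 4.34 FPKM in NT and 14.6 and 8.17 FPKM in OsC3H10OX (log2 fold change 1.39, SE 0.30, adjusted p = 0.149 by limma). Os04g0451200 had 4.71 and 6.49 FPKM in NT and 21.1 and 11.9 FPKM in OsC3H10OX (log2 fold change 1.38, SE 0.30, adjusted p = 0.152 by limma). For these 3 genes the groups did not overlap, but the gap between the OsC3H10OX libraries was 1.32, 0.74 and 0.77 on the log2 scale. The OsC3H10OX libraries lay closer in the second transcripts of Os04g0320700 (6.54 and 6.74 FPKM) and Os04g0451200 (16.7 and 12.8 FPKM, not matched by the rule). These had log2 fold changes of 1.04 and 1.30 and did not pass the test either (adjusted p = 0.0604 and 0.0578 by limma).

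For the remaining pair, Os07g0490100 and Os07g0503300, the annotated transcripts of each gene had log2 fold changes of opposite sign. Whether this came from how fragments were divided between the transcripts was not tested. Os07g0490100 had 0.00055 and 0.672 FPKM in NT and 4.41 and 8.27 FPKM in OsC3H10OX (log2 fold change 2.45, SE 0.39, adjusted p = 0.0861 by limma), while its second transcript went the other way, with 1.45 and 0.763 FPKM in NT and 0.796 and 0.0004 FPKM in OsC3H10OX. Summed over both transcripts the gene stood at 1.45 and 1.44 FPKM in NT and 5.20 and 8.27 FPKM in OsC3H10OX (adjusted p = 0.0531 by limma, log2 fold change 1.62). Os07g0503300 showed the opposite outcome. Its first transcript had 2.40 and 6.11 FPKM in NT and 9.54 and 9.93 FPKM in OsC3H10OX (adjusted p = 0.242 by limma, log2 fold change 1.13), its second had a log2 fold change of -2.08, and the gene as a whole stood at 9.66 and 10.6 FPKM in NT and 11.1 and 9.93 FPKM in OsC3H10OX, which is 0.05 as a log2 fold change. Summing per gene also brought Os04g0320700 past the test, at 5.94 and 6.81 FPKM in NT and 21.1 and 14.9 FPKM in OsC3H10OX (adjusted p = 0.0441 by limma, log2 fold change 1.36), so that 4 members were called higher in place of 3. Over all genes, summing called 1.11% higher and 1.32% lower, more than the 0.695% and 0.869% with 1 transcript for each gene.

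**Figure D2:**
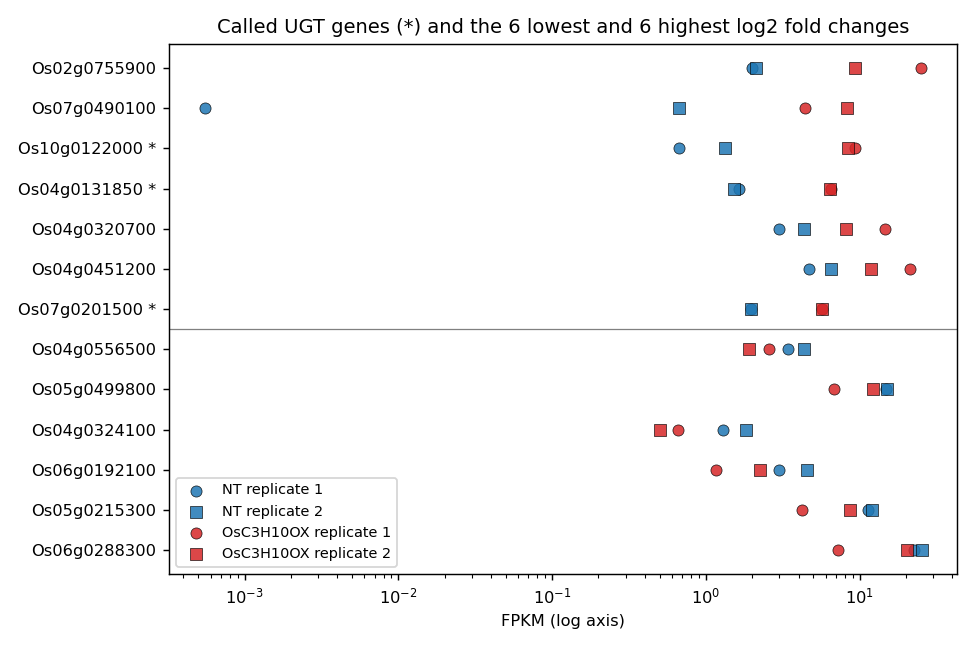
FPKM on a log axis in each of the 4 libraries (blue NT, red OsC3H10OX, circles replicate 1, squares replicate 2) for the called UGT genes, marked with an asterisk, and the 6 highest and 6 lowest log2 fold changes. Among the genes above the line the groups are separate, and among those below it OsC3H10OX replicate 1 is the lowest library in 4 of the 6 genes.

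At the other end of the ranking 0 members passed the test, and most of the lowest values came from OsC3H10OX replicate 1. Os06g0288300, described as a flavone C-glucosyltransferase (an enzyme that fixes glucose to the carbon skeleton of flavones), had 22.6 and 25.2 FPKM in NT and 7.20 and 20.2 FPKM in OsC3H10OX, with a log2 fold change of -0.91 (SE 0.49, adjusted p = 0.404 by limma). Os05g0215300, with no substrate named, had 11.3 and 11.9 FPKM in NT and 4.24 and 8.63 FPKM in OsC3H10OX (log2 fold change -0.83, SE 0.33, adjusted p = 0.305 by limma). Os05g0499800, also with no substrate named, had 14.7 and 15.0 FPKM in NT and 6.77 and 12.3 FPKM in OsC3H10OX (log2 fold change -0.64, SE 0.29, adjusted p = 0.348 by limma). In all 3 the NT libraries were close together, and OsC3H10OX replicate 1 stands well below replicate 2. Without OsC3H10OX replicate 2 these 3 genes and Os05g0527800 were called lower.

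Only Os04g0324100 and Os04g0556500 of the 6 lowest had OsC3H10OX replicate 1 above replicate 2. Os04g0324100 had 1.29 and 1.83 FPKM in NT and 0.654 and 0.501 FPKM in OsC3H10OX (log2 fold change -0.69, SE 0.14, adjusted p = 0.143 by limma). Os06g0192100, described as a flavonoid 3-O-glucosyltransferase, had 3.00 and 4.54 FPKM in NT and 1.16 and 2.25 FPKM in OsC3H10OX (log2 fold change -0.83, SE 0.28, adjusted p = 0.254 by limma). The sixth, Os04g0556500, is a cytokinin gene and is given with its class.

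For most UGTs the OsC3H10OX libraries lay further apart than the NT libraries. The median gap between the 2 libraries of a group, on the log2 scale, was 0.12 in NT and 0.26 in OsC3H10OX for the tested members, against 0.12 and 0.17 for all tested transcripts. The gap was larger in OsC3H10OX than in NT for 70 of the 95 members, and the same share over all tested transcripts is not given here. OsC3H10OX replicate 1 was below replicate 2 for 61 members (64.2%, against 51.3% of all tested transcripts). That held for 7 of the 9 members with a log2 fold change of -0.5 or less, whereas replicate 1 was the higher library for 10 of the 15 members at 0.5 or more. Of those 15, 14 had a mean below 5 FPKM in NT. Members at both ends were picked by a fold change that includes replicate 1. The library that departs most therefore tends to lie outward by construction, and these counts have no background here. The cause of this gap was not tested.

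**Figure D3:**
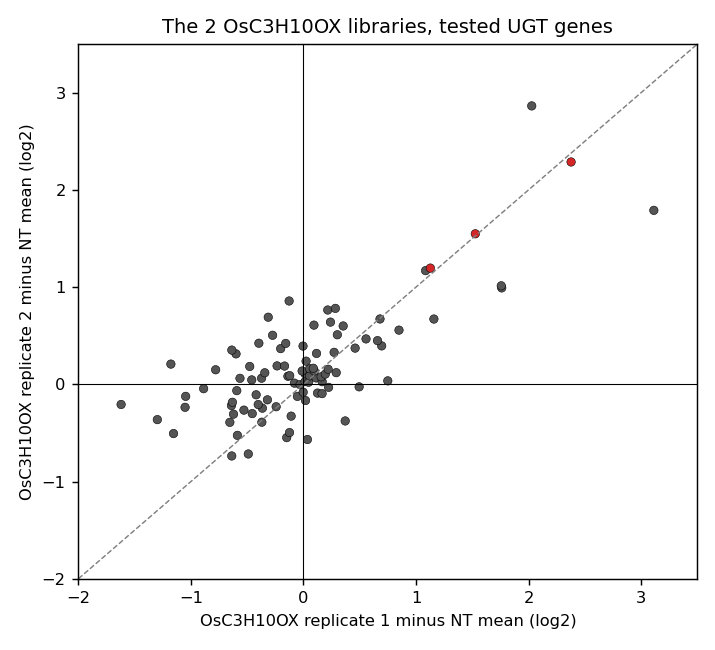
Each point is a tested UGT gene, with its log2 level in OsC3H10OX replicate 1 (x) and replicate 2 (y) relative to the NT mean, a dashed line of equality and the 3 called genes in red. Of the 95 genes, 61 lie above the dashed line, and the called genes lie close to it.

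The most abundant members showed little difference between the groups. Os02g0664200, described as a UDP-glucose:glycoprotein glucosyltransferase, the enzyme that puts glucose back on misfolded glycoproteins in the endoplasmic reticulum, had 59.4 and 58.8 FPKM in NT and 64.0 and 61.5 FPKM in OsC3H10OX (log2 fold change 0.15, SE 0.09, adjusted p = 0.455 by limma). It works on proteins and belongs to another enzyme family than the small-molecule UGTs, and is included because its description carries the words of the rule. Os06g0289900, the highest of the small-molecule UGTs, had 49.6 and 49.1 FPKM in NT and 38.3 and 78.8 FPKM in OsC3H10OX, so that its OsC3H10OX libraries lay on opposite sides of NT (log2 fold change 0.19, SE 0.35). Os11g0599200 had 28.0 and 28.1 FPKM in NT and 32.7 and 43.5 FPKM in OsC3H10OX (log2 fold change 0.44, SE 0.16, adjusted p = 0.276 by limma), with groups that did not overlap.

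The 6 most abundant members were ranked by the 1 transcript that stands for each gene. Summed over all its transcripts, Os07g0100300 stood above Os01g0179600, at 32.3 and 29.2 FPKM in NT and 31.9 and 27.5 FPKM in OsC3H10OX. For the other 3 of the 6 the groups overlapped. Os12g0561900 had 27.0 and 30.5 FPKM in NT and 36.6 and 21.5 FPKM in OsC3H10OX. Os01g0179600 had 20.6 and 25.8 FPKM in NT and 17.8 and 24.7 FPKM in OsC3H10OX. Os07g0503600, a transcript of 263 nt described as similar to an anthocyanidin glucosyltransferase, had 29.4 and 48.8 FPKM in NT and 37.3 and 37.9 FPKM in OsC3H10OX, from about 90, 254, 127 and 120 fragments, so a short model carries a high FPKM on few fragments. The log2 fold changes of these 3 were -0.00301, -0.11 and 0.02.

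Cytokinin is inactivated by glucosylation on its side chain, reversibly, or on its ring, and 9 members are described as zeatin or cytokinin glucosyltransferases. Of these, 4 were tested, 0 passed, and their log2 fold changes ran from -0.60 to 0.41. Os04g0556500, a cis-zeatin O-glucosyltransferase, had 3.42 and 4.36 FPKM in NT and 2.57 and 1.91 FPKM in OsC3H10OX (log2 fold change -0.60, SE 0.15, adjusted p = 0.185 by limma). Os04g0565400 had 3.05 and 2.82 FPKM in NT and 3.98 and 4.50 FPKM in OsC3H10OX (log2 fold change 0.41, SE 0.14, adjusted p = 0.253 by limma). These 2 members differed in opposite directions and each had groups that did not overlap. Os07g0660500 and the cytokinin N-glucosyltransferase Os07g0241700 had log2 fold changes of 0.11 and 0.01, with overlapping groups.

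The other 5 cytokinin members were below the filter, and in 4 of them both OsC3H10OX libraries were below both NT libraries, which was so for 20.2% of all 7523 untested transcripts. Os08g0168700, a cytokinin O-glucosyltransferase, had 0.902 and 0.734 FPKM in NT and 0.226 and 0.220 FPKM in OsC3H10OX, about 36, 45, 10 and 9 fragments. Os07g0486700 had 0.583 and 0.886 FPKM in NT and 0.188 and 0.312 FPKM in OsC3H10OX, about 28, 65, 10 and 15 fragments. Os04g0565200 and Os04g0319800 also lay lower in OsC3H10OX, and Os07g0489950 had overlapping groups between 0.713 and 0.849 FPKM. These values have no test.

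Auxin is stored as an ester of glucose by indole-3-acetate beta-glucosyltransferases, the description of 3 members. Os09g0518000 had 5.46 and 6.93 FPKM in NT and 7.78 and 7.85 FPKM in OsC3H10OX (log2 fold change 0.30, SE 0.13, adjusted p = 0.341 by limma). Os01g0805500 had 0.830 and 1.02 FPKM in NT and 1.41 and 1.05 FPKM in OsC3H10OX (log2 fold change 0.21, SE 0.13, adjusted p = 0.465 by limma). In both the groups did not overlap, and neither passed the test. Os05g0493600 stayed at or below 0.222 FPKM in every library and was not tested.

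Flavonoid glucosyltransferases attach sugar to pigments and ultraviolet-absorbing flavones. Of 5 members 4 were tested, and 3 of them had negative log2 fold changes. Beside Os06g0288300 and Os06g0192100, Os07g0148200 had 7.39 and 6.66 FPKM in NT and 5.57 and 6.04 FPKM in OsC3H10OX (log2 fold change -0.24, SE 0.13, adjusted p = 0.405 by limma). In these 3 genes both OsC3H10OX libraries were below both NT libraries (background 26.1%), and 0 passed the test. The fourth was the short anthocyanidin model Os07g0503600, and Os01g0736300 was at or below 0.180 FPKM in every library. The 3 hydroquinone glucosyltransferase genes, of a kind known to act on phenols and on foreign compounds, did not reach the filter. Os02g0242900 was the highest of them, at 0.771 and 0.846 FPKM in NT and 1.53 and 0.741 FPKM in OsC3H10OX.

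Among the sterol glucosyltransferases other than the pair on chromosome 4, Os07g0419500 had 10.9 and 10.6 FPKM in NT and 10.9 and 11.4 FPKM in OsC3H10OX. Os01g0867600 and Os02g0210800 were lower, at 7.13 ± 0.281 and 5.35 ± 0.115 FPKM in NT and 7.23 ± 1.04 and 5.82 ± 0.646 FPKM in OsC3H10OX (SD, n = 2). The log2 fold changes of these 3 were 0.06, 0.02 and 0.10, each under 1 SE of its error. Os04g0131850 had the lowest level of the 5 genes in NT, and in OsC3H10OX Os02g0210800 was the only one below it.

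Members that build lipids or protein glycans showed little difference. Os01g0906000, described as a ceramide glucosyltransferase, which makes glucosylceramide for membranes, had 14.5 and 16.7 FPKM in NT and 15.9 and 10.01 FPKM in OsC3H10OX (log2 fold change -0.27, SE 0.23, adjusted p = 0.585 by limma). The SQD2-like sulfolipid enzyme Os07g0100300 and the Alg10-like enzyme Os04g0503700, which puts the last glucose on the precursor of N-glycans, were named after their values were seen. They had 16.5, 15.6, 16.5 and 16.1 FPKM and 9.89, 8.82, 9.18 and 9.13 FPKM in NT replicates 1 and 2 and OsC3H10OX replicates 1 and 2. Their log2 fold changes were 0.03 and -0.02.

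The remaining members carry a family number or no substrate. Of the 8 with a numbered name 4 were tested, with log2 fold changes from -0.21 to 0.35 and 0 called. Of the 113 with no substrate named, 72 were tested, 2 were called higher, and 37 had positive and 35 negative log2 fold changes. A class with a named acceptor thus held 1 of the 3 called genes, the sterol gene.

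The 150 members lie on all 12 chromosomes, with 27 on chromosome 7, 23 on chromosome 1 and 21 on chromosome 4 but 2 on chromosome 8 and 1 on chromosome 12. Members no more than 50 kb apart were joined into stretches, which gave 30 stretches with 92 members and left 58 members alone. The largest held 7 members on chromosome 5, of which 2 were tested. Neighbouring members of some stretches lay on both sides of 0. In the stretch of 5 members over 22.3 kb on chromosome 3, the 4 tested ran from Os03g0757200 at -0.47 to Os03g0757000 at 0.54 on the log2 fold change scale. In the 5 tested members at chr7:19008024-19062546 they ran from Os07g0502900 at -0.31 to Os07g0503300 at 1.13, and in the 4 at chr7:7900573-7913687 from Os07g0241700 at 0.01 to Os07g0241600 at 0.13. The called genes on chromosomes 4 and 7 each lay in a stretch where 1 other member was tested, with log2 fold changes of -0.24 for Os04g0131900 and 0.36 for Os07g0201800, and 0 of these neighbours passed the test.

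**Figure D4:**
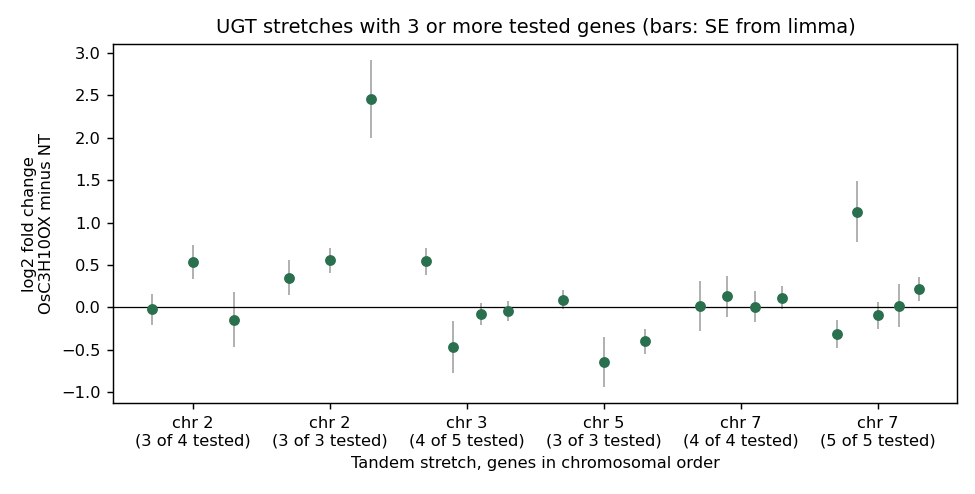
Log2 fold change (OsC3H10OX minus NT) with 1 SE from limma for each tested member of the 6 tandem stretches with 3 or more tested UGT genes, in chromosomal order within a stretch. The second stretch on chromosome 2 lies wholly above 0, with Os02g0755900 at 2.45, and the stretch on chromosome 3 lies on both sides of 0.

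The untested 55 members stayed at or below 2.01 FPKM in every library. Among them 11 reached 1 FPKM in a single library, which was OsC3H10OX replicate 1 for 6 of the 11. Both OsC3H10OX libraries were above both NT libraries for 14 (25.5%, against 24.1% of all untested transcripts) and below them for 11 (20.0%, against 20.2%). At these depths 1 fragment on a transcript of 1500 nt is worth between 0.0134 and 0.0205 FPKM, so most of these members rest on few fragments, and those below the filter have no test in the main comparison.

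UGTs draw on UDP-sugars, and the genes that make and interconvert these sugars were set beside them from their descriptions. Of 18 such genes 16 were tested and 0 passed (before adjustment 1 was higher and 5 were lower at p under 0.05, which is 6.25% and 31.2% against backgrounds of 8.35% and 9.36%). The median log2 fold change was -0.26, 12 were negative, and in all of these 12 both OsC3H10OX libraries were below both NT libraries (75% of the tested genes, background 26.1%). In 2 genes they were above (12.5%, background 26.8%). The most abundant was Os03g0278000, described as a UDP-glucuronic acid decarboxylase, which makes UDP-xylose for cell walls, with 549 and 571 FPKM in NT and 351 and 420.2 FPKM in OsC3H10OX (log2 fold change -0.47, SE 0.11, adjusted p = 0.172 by limma).

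The next genes were named after their values were seen. Os12g0443500, a UDP-glucose 6-dehydrogenase that makes UDP-glucuronic acid, had 169 and 149 FPKM in NT and 90.6 and 101 FPKM in OsC3H10OX (log2 fold change -0.62, SE 0.12, adjusted p = 0.124 by limma). Os09g0553200, a UDP-glucose pyrophosphorylase that makes UDP-glucose itself, had 250 and 236 FPKM in NT and 154 and 195 FPKM in OsC3H10OX, which is -0.38 as a log2 fold change. Os05g0468600, similar to a UDP-glucose pyrophosphorylase of another type, had 21.8 and 0.00628 FPKM in NT and 18.1 and 17.6 FPKM in OsC3H10OX, so its log2 fold change of 1.99 rests on NT replicate 2 alone. Os06g0701200 and Os08g0206900, of the UTP--glucose-1-phosphate uridylyltransferase family, had log2 fold changes of 0.04 and -0.21. The 1 gene higher before adjustment was the UDP-glucose 4-epimerase Os09g0526700 (log2 fold change 0.68, adjusted p = 0.209 by limma). The lowest log2 fold change, -1.61, was that of Os02g0791500, whose NT libraries stood at 11.2 and 32.2 FPKM.

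**Figure D5:**
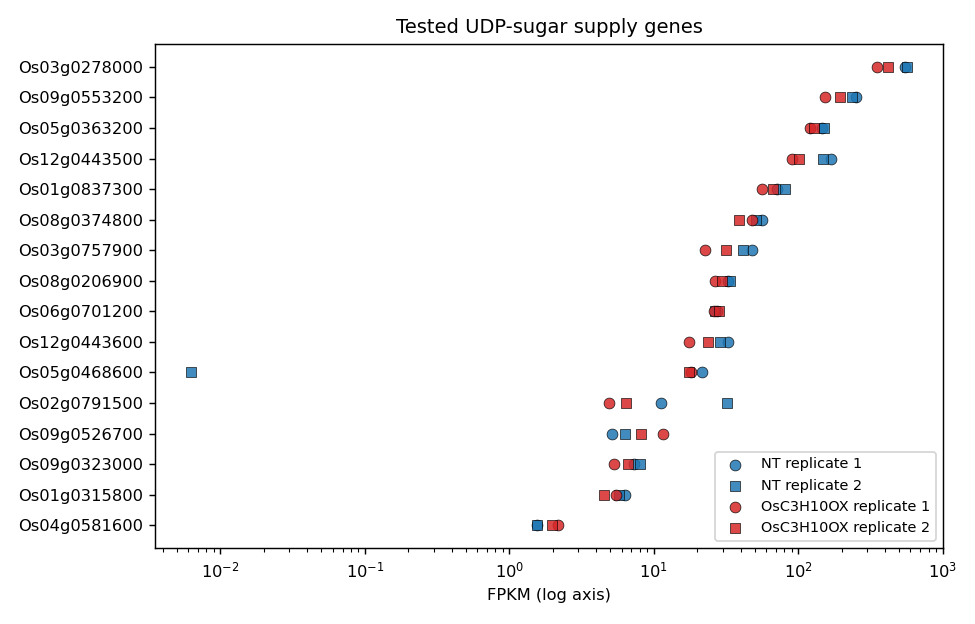
FPKM on a log axis in each of the 4 libraries (blue NT, red OsC3H10OX, circles replicate 1, squares replicate 2) for the 16 tested genes that supply or convert UDP-sugars, in order of mean level. In 12 genes both red points lie to the left of both blue points.

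Beta-glucosidases remove glucose from glucosides and so act against the UGTs. The 44 genes with that description or of glycoside hydrolase family 1 include endo-1,3-beta-glucosidases, which cut cell wall glucan instead. They also include Os12g0227500, described as similar to a beta-glucosidase aggregating factor (log2 fold change -1.10, adjusted p = 0.145 by limma). Of 37 tested, 0 passed (before adjustment 4 were higher and 3 were lower at p under 0.05, which is 10.8% and 8.11% against backgrounds of 8.35% and 9.36%), and the log2 fold changes ran from -1.10 to 0.99 with a median of 0.03. The groups did not overlap for 9 higher and 6 lower genes (24.3% and 16.2%, against 26.8% and 26.1% of all tested transcripts). The most abundant was Os03g0703000 at 175 and 175 FPKM in NT and 173 and 146 FPKM in OsC3H10OX. With FPKM summed per gene, 4 of these genes were called, 3 higher and 1 lower, where the backgrounds are 1.11% and 1.32%. Os04g0474900, similar to a cyanogenic beta-glucosidase, Os11g0683500 of glycoside hydrolase family 1 and the endo-1,3-beta-glucosidase Os01g0940700 rose (log2 fold changes 0.98, 0.76 and 0.95), and the beta-glucosidase Os03g0212800 fell (-1.10), with adjusted p between 0.0239 and 0.0494 by limma.

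The whole plants held leaf and root, and in such samples fewer cells of a type and less RNA per cell cannot be told apart. Leaf markers (Rubisco small subunit and chlorophyll a/b-binding proteins, 13 genes) summed to 7275 and 7067 FPKM in NT and 8401 and 9419 FPKM in OsC3H10OX, with 0 of the 12 tested genes called, 11 of them with positive log2 fold changes (background 50.3%) and 7 with both OsC3H10OX libraries above both NT libraries (background 26.8%). Of 7 root markers, the 4 RCc3 genes summed to 513 and 506 FPKM in NT and 312 and 339 FPKM in OsC3H10OX, and 2 of them, Os04g0554500 and Os04g0554600, were called lower (log2 fold changes -1.31 and -1.87, background 0.841%). The other 3 root markers, the silicon influx and efflux transporter genes and Os02g0112100, summed to 258 and 252 FPKM in NT and 292 and 258 FPKM in OsC3H10OX, with 0 called. The part of organ proportions in the UGT and UDP-sugar values was not tested.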

How the data were processed

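RNA of whole plants was sequenced from TruSeq libraries, 2 of NT and 2 of OsC3H10OX. The authors trimmed reads with Trimmomatic 0.32, used TopHat to map them to IRGSP-1.0 (RAP-DB annotation), and deposited FPKM per transcript. The tool that estimated FPKM is not given in the sources used here. The deposited log2 values are log2(FPKM + 1), quantile-normalized over the 4 libraries, and understate changes of low transcripts. Starts in the deposited table count from 0 and are given from 1 here. Columns with the authors' fold changes, p-values, means and SDs were not used, and 0 per-sample columns were left unmapped.

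From these log2 values the difference OsC3H10OX minus NT was tested by linear models in limma 3.58.1 under R 4.3.3, with empirical Bayes moderation and a mean-variance trend. A minimum of 1 FPKM in 2 libraries or more left 30449 transcripts, with Benjamini-Hochberg adjustment over all of them and calls at an adjusted p under 0.05. The Pearson correlation of the log2 values was 0.971 between NT libraries, 0.972 between OsC3H10OX libraries and 0.931 to 0.962 across groups, and 197 transcripts were called higher and 256 lower. The procedure was also run on data simulated from limma's own fitted spread, which cannot show whether that model holds for these libraries.

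Depth was read from the steps of low FPKM values: per kilobase, 1 FPKM is worth 37.0 and 56.1 fragments in the NT libraries and 41.2 and 38.1 fragments in the OsC3H10OX libraries. With these, 90.7% to 92.4% of low values were whole within 0.05. The search was adjusted while looking at its result, so fragment numbers are approximate and cover counting only. The values are not counts, and no count model was used.

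Members and lists were chosen with earlier results of these data known. Named genes were the called members, the 6 most abundant, the 6 highest and 6 lowest log2 fold changes, members whose description names an acceptor, the ends of tandem stretches with at least 4 tested members, and the called and most abundant genes of the lists. Other genes were named after their values were seen. Alternatives were other scalings and pseudocounts, no filter or one at 5 FPKM, sums of FPKM over the transcripts of a gene, no trend, robust estimation, a block for the replicate number and each library left out. Leaving a library out assumes that the lone one varies like the other group. Every matched transcript, and a beta-glucosidase list without endo-1,3-beta-glucosidase and aggregating factor genes, were added after seeing the data.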

Additional observations from a re-analysis of the deposited data

How the results depend on the processing

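The 3 calls held with log2(FPKM + 1) without normalization, with log2(FPKM + 0.1), without the trend, with robust estimation and with FPKM summed per gene. With no filter on low values 0 members were called higher (adjusted p 0.0627 to 0.0799 for the 3 genes by limma), and with a filter of 5 FPKM Os07g0201500 had an adjusted p of 0.0518 by limma. The shares of all transcripts called at either setting are not given here. With a pseudocount of 0.1, 15 members were at least 2-fold higher and 5 at least 2-fold lower (backgrounds 3.92% and 3.77%). With the 5 FPKM filter 46 members were tested, of which 13 had groups that did not overlap and were higher and 14 lower. The same shares over all transcripts at that filter are not given here, so these counts have no background. FPKM summed per gene called 4 beta-glucosidase genes. Os07g0503600 turned to -0.013 with log2(FPKM + 1) and to -0.012 with log2(FPKM + 0.1). The cause of these shifts was not tested.

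Leaving out 1 library at a time gave 7 to 11 members at least 2-fold higher and 0 to 7 at least 2-fold lower. Over all transcripts these shares ran from 1.66% to 2.68% and from 1.42% to 2.43%. With every library they were 1.8% and 1.79%. Without overlap, 36 to 52 members were higher and 28 to 44 lower. Over all tested transcripts those shares ran from 35.1% to 41.7% and from 35.1% to 42.2%, against 26.8% and 26.1% with every library. Log2 fold changes near 0 changed sign. Os01g0179600 ran from -0.34 to 0.12, Os01g0867600 ran from -0.090 to 0.12, Os01g0906000 ran from -0.57 to 0.035, Os06g0289900 ran from -0.31 to 0.69, Os07g0241600 ran from -0.16 to 0.42, Os07g0241700 ran from -0.17 to 0.19, Os07g0503600 ran from -0.33 to 0.37, Os07g0660500 ran from -0.051 to 0.27 and Os12g0561900 ran from -0.38 to 0.37.

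Over all tested transcripts the departures of the replicate 1 libraries from their groups correlated at -0.0258. This value cannot show whether the replicate numbers pair the samples, and the labels state no pairing. A block for the replicate number left 0 members called higher, with adjusted p of 0.0915, 0.0962 and 0.133 for Os10g0122000, Os04g0131850 and Os07g0201500 by limma. The share of all transcripts called with this block is not given here. Whether the loss is particular to these genes was therefore not tested.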

Other observations

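Several UGT genes with more than 1 annotated transcript had transcripts that differed in direction. For Os02g0490500 the main transcript had 9.76 and 9.73 FPKM in NT and 7.42 and 7.05 FPKM in OsC3H10OX (log2 fold change -0.38), and the second had 1.98 and 2.72 FPKM in NT and 4.69 and 3.44 FPKM in OsC3H10OX (log2 fold change 0.59). In each transcript the groups did not overlap, with adjusted p of 0.192 and 0.223 by limma. Summed over both, the gene stood at 11.7 and 12.5 FPKM in NT and 12.1 and 10.5 FPKM in OsC3H10OX. These groups overlapped (log2 fold change -0.08, adjusted p = 0.697 by limma). The counts of lower members take its main transcript only. For Os04g0451200 both transcripts lay in the same direction, with log2 fold changes of 1.38 and 1.30.

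Among members below the filter, chosen here after their values were seen, Os05g0527000 and Os05g0527700 of the largest tandem stretch had their highest value in OsC3H10OX replicate 1. The first had 0.0375 and 0.220 FPKM in NT and 1.37 and 0.623 FPKM in OsC3H10OX. The second had 0.0372 and 0.0484 FPKM in NT and 1.68 and 0.0364 FPKM in OsC3H10OX, so that its groups overlapped.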
